A study of Mus musculus with 8 samples.

Results

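Cytochrome P450 enzymes are haem proteins of the endoplasmic reticulum, or in some cases of mitochondria, that insert an oxygen atom into lipids, steroids, retinoids and foreign compounds, using electrons passed on by a reductase. In the kidney most of them lie in the proximal tubule. CYP4A enzymes hydroxylate arachidonic acid at its tail to products that act on vessel tone and sodium transport, CYP2C and CYP2J enzymes turn the same fatty acid into epoxides, and CYP26 enzymes break down retinoic acid. The genes described here are 40 mouse P450 genes chosen by symbol, across the families CYP1, CYP2, CYP3 and CYP4 and the retinoid and sterol types. Of these, 39 had a row among the 37583 gene rows of the count files, 36 passed the filter on low counts, and Cyp2d12 had no row.

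The libraries came from whole kidneys of 4 mice labelled knockout, with the genotype b-actinCreERT2+ TFAP2Bfl/fl, and of 4 control littermates labelled WT and named wildtype here. CreERT2 is a Cre recombinase that works only when tamoxifen is given, and the beta-actin promoter drives it in most cell types, so the deletion was not aimed at one kind of tubule cell. Age, strain, the tamoxifen schedule and the alleles that the control littermates carried are not given in the labels, nor is it said whether the controls received tamoxifen. Tfap2b codes for AP-2 beta, a factor that controls genes of the distal nephron, and the comparison asks which kidney transcripts differ between the genotypes. Gene counts came to 13435113 to 17930347 per library, and levels below are TMM-normalised CPM, each gene's share of the library's counts scaled to a common total. Every library held at least 10122 counts of Xist and at most 3 counts over 4 Y-linked genes.

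Before the P450 genes, the libraries themselves differed in ways that bear on every value below. Whole-gene counts of Tfap2b came to 238, 266, 237 and 240.3 CPM in the libraries labelled knockout, against 94.3, 105, 111 and 103 CPM in those labelled wildtype. Such counts also take in exons that the Cre does not remove and do not check the deletion, so directions are given as those of the labelled libraries. Knockout library 4 held 249 CPM of summed adrenal cortex markers, against 10.1 to 10.8 CPM in the other 3 knockout libraries and 7.64 to 10.8 CPM in the wildtype libraries. Summed adipocyte markers came to 485, 1189, 304 and 627 CPM in knockout libraries 1 to 4. In wildtype libraries 1 to 4 they came to 904, 201, 356 and 540 CPM, and none of these markers passed the test. A score of circadian clock genes was taken as the mean log2 CPM of 8 clock output genes, among them Tef and Dbp, less that of 4 clock activators. It stood at 1.17, -1.24, -1.57 and -0.77 in knockout libraries 1 to 4, against 0.38, 1.79, 3.37 and 2.20 in wildtype libraries 1 to 4. Knockout library 1 was the only one of its group within the wildtype range. Because the score differed between the groups, a fit with it as a term cannot fully separate it from genotype, and lost calls there have no single reading. Summed markers of the proximal tubule, where most renal P450 is made, came to 28597 to 38296 CPM in the knockout libraries, against 38065 to 45575 CPM in the wildtype libraries, and 7 of 20 fell with none rising. A large part of these sums is 1 gene, Kap, at 12125 to 17543 CPM in the knockout and 10497 to 19016 CPM in the wildtype libraries (log2 fold change -0.03, not passed). By gene, 18 of the 20 markers were lower in the knockout libraries, with a median log2 fold change of -0.51. All 8 markers of the thick ascending limb and distal tubule fell, 5 of 7 tested collecting duct markers rose, and 7 of 8 macrophage markers rose. In whole tissue, fewer cells of a type and less RNA per cell cannot be told apart, and the part of these differences in the P450 values was not tested.

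Sequences come first where they limit what a count can say. Cyp4a12a and Cyp4a12b lie on chromosome 4, and their coding sequences, 1524 bases each, differ at 23 bases (98.5% identical), with an identical run of 342 bases. Of all 50-base stretches of their transcripts, 48.9% in Cyp4a12a and 49.4% in Cyp4a12b occur in another gene as well. The stretch from coding base 624 to 683 is shown from the GENCODE M21 transcripts, with bases that differ between the copies in capitals.
Cyp4a12a: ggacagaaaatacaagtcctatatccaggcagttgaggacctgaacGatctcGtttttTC
Cyp4a12b: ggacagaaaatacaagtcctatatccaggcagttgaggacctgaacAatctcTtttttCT
Cyp2a4 and Cyp2a5 on chromosome 7 form a second such pair, with 1482 coding bases each, 23 differing bases (98.4% identical) and 38.0% and 40.8% of 50-base stretches shared with another gene. Their coding bases 596 to 655 are shown in the same way.
Cyp2a4: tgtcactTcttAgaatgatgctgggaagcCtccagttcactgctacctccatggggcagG
Cyp2a5: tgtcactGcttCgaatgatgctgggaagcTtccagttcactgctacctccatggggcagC
Reads from stretches without a capital letter cannot be assigned to one copy, so the split of counts within each pair is uncertain. The other members with many shared stretches were Cyp4a10 (30.5%, mostly with Cyp4a31), Cyp2d9 (29.0%, mostly with Cyp2d12) and Cyp4f16 (26.5%, mostly with Cyp4f37). Cyp2j9, Cyp2j13 and Cyp4a14 shared at most 0.245%.

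Levels per length spanned several orders of magnitude. Divided by the summed exon length in GENCODE M21, the most abundant P450 transcripts of the knockout libraries were Cyp4a14 (531 ± 128 CPM per kb), Cyp4a10 (479 ± 119), Cyp4b1 (474 ± 155) and Cyp2j5 (422 ± 81.0), each as mean ± SD with n = 4. In the wildtype libraries the order was Cyp2j5 (536 ± 30.1 CPM per kb), Cyp4b1 (344 ± 67.6), Cyp4a14 (336 ± 51.0) and Cyp4a10 (291 ± 69.7). In the knockout libraries the 4 means differed by less than the SD of Cyp4a14. In the wildtype libraries Cyp2j5 stood above the others, while Cyp4b1, Cyp4a14 and Cyp4a10 lay within 1 SD of each other. Below them came Cyp2d26, Cyp2a4, Cyp2j11 and Cyp2e1, at 115 to 157 CPM per kb in the knockout libraries and 78.8 to 188 CPM per kb in the wildtype libraries. At the other end, 3 hepatic drug-metabolising transcripts were close to the counting limit. Cyp1a2 had 6 counts in the 4 knockout libraries together and 1 in the wildtype libraries, Cyp3a11 had 10 and 9, and Cyp2b10 had 34 and 28. These 3 did not pass the filter and were not tested. Summed over all 39 rows, P450 transcripts came to 5351 to 7824 CPM in the knockout libraries and 4769 to 5828 CPM in the wildtype libraries, with the groups overlapping.

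**Figure D1:**
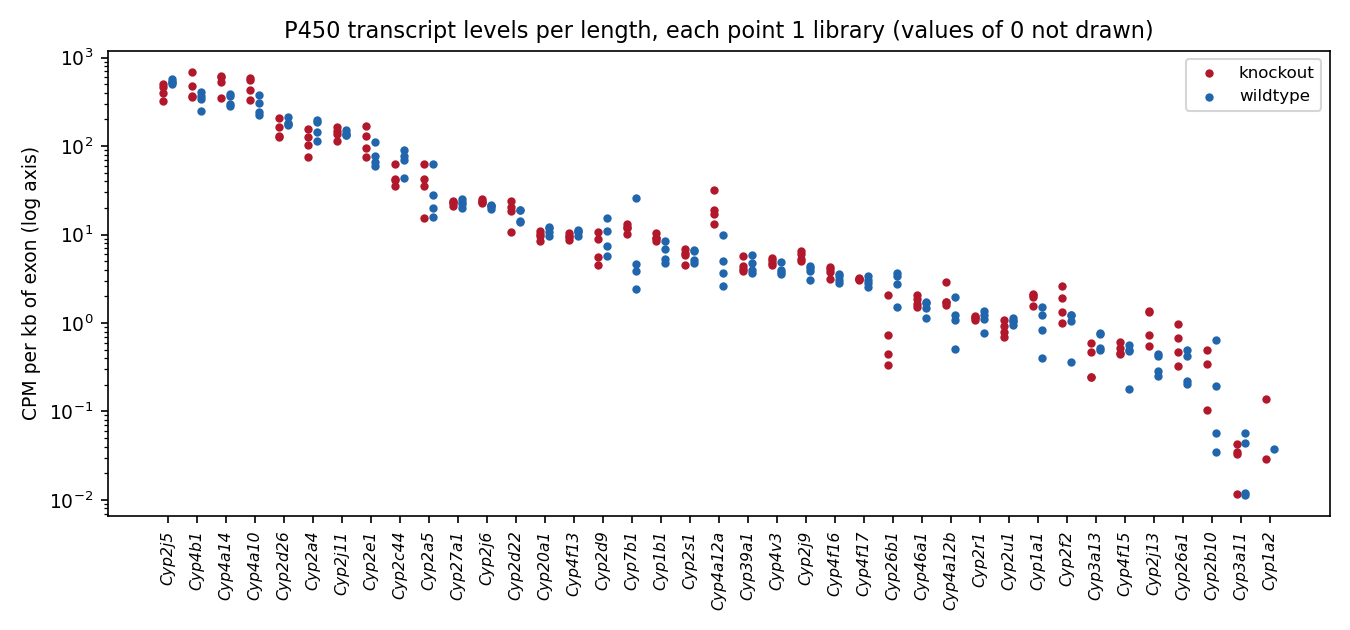
Levels of 39 P450 transcripts in CPM per kb of exon on a log axis, 1 point per library, with knockout libraries in red to the left of wildtype libraries in blue, sorted by the wildtype mean. Cyp2j5, Cyp4b1, Cyp4a14 and Cyp4a10 lead both groups, and Cyp4a12a shows the widest gap between groups among the transcripts above 10 CPM per kb in the knockout libraries.

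Against all genes, the P450 genes as a whole did not stand out by their number of calls. Of the 36 tested, 4 rose, none fell and 32 did not pass (edgeR's quasi-likelihood test, two-sided, Benjamini-Hochberg adjusted over 15228 genes, threshold 0.05). The 4 are Cyp2j13, Cyp2j9, Cyp4a12a and Cyp4a14. That is 11.1% of the tested members called in either direction, against 11.9% of all genes tested, while 6.23% of all genes rose and 5.7% fell. The median log2 fold change was 0.21 over the members and 0.00 over all genes, with 25 members higher and 11 lower. Before adjustment, 12 of the 36 members had a p under 0.05, against 27.1% of all genes. Groups did not overlap for 6 members that were higher and 1 that was lower in the knockout libraries, which is 7 of 36 against a background of 18.5% of all genes (9.42% higher and 9.05% lower). With library totals in place of TMM factors the median of all genes shifted to 0.11 and 9 members rose, so that small positive changes depend on the scaling.

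**Figure D2:**
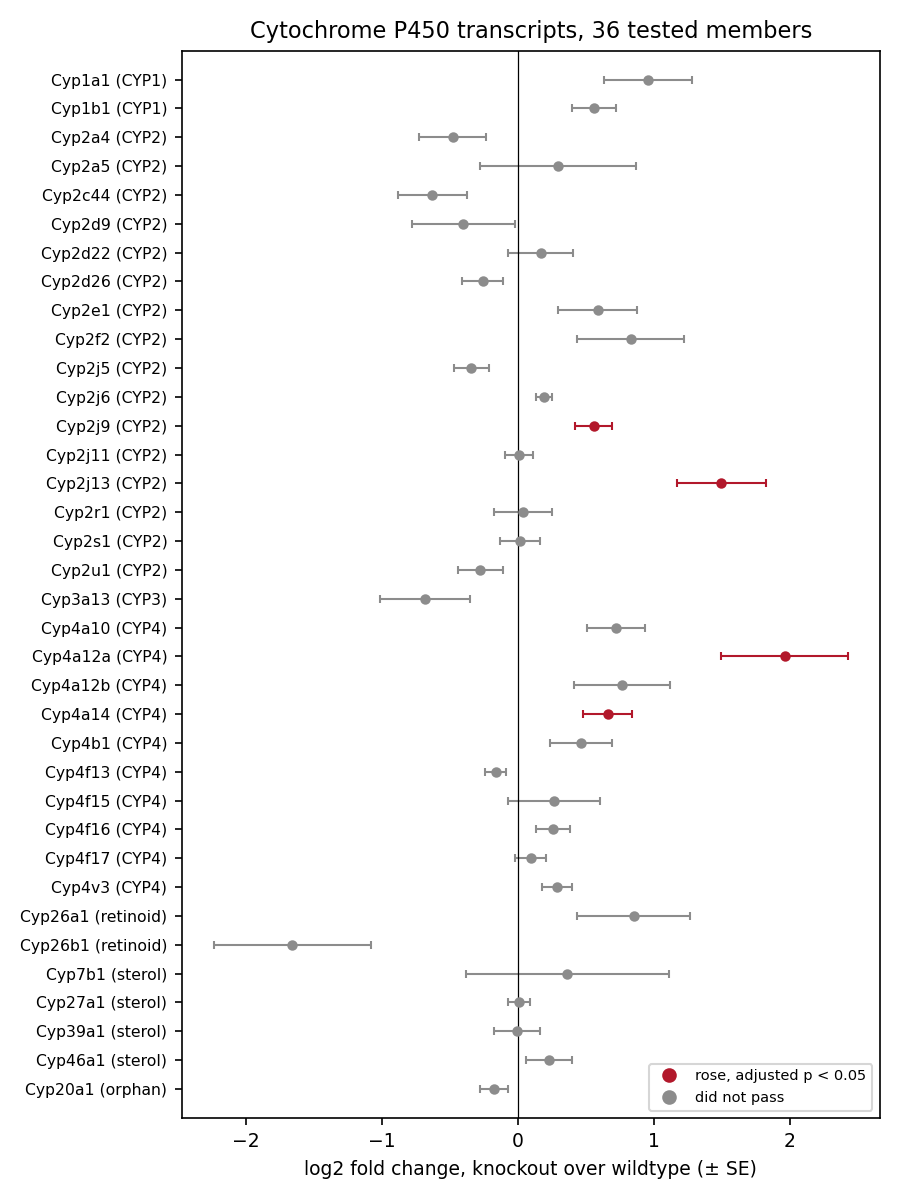
Log2 fold changes (knockout over wildtype, ± SE) of the 36 tested P450 members, grouped by family. Red points rose at an adjusted p under 0.05, namely Cyp2j9, Cyp2j13, Cyp4a12a and Cyp4a14, and grey points did not pass.

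The CYP4 family, which hydroxylates fatty acids, held the largest increase. Of its 10 tested members, 2 rose and none fell (20% called, against 11.9% of all genes tested). In this family 9 members had a positive log2 fold change and the median was 0.38. All 4 CYP4A members were higher, with log2 fold changes of 0.66 to 1.96 and a median of 0.74, and 2 of them passed the test. Of the CYP4A genes outside the set, Cyp4a31 was lower and Cyp4a32 higher in the knockout libraries. Neither passed, and their values are given further below. Cyp4a12a (ENSMUSG00000066071) codes for an arachidonate tail hydroxylase and is higher in males. It was not a leading P450 transcript in these libraries. Per kb of exon it stood at 20.4 CPM in the knockout and 5.28 CPM in the wildtype libraries, where Cyp4a10 stood at 479 and 291 CPM. Cyp4a12a was at 46.2, 41.8, 78.0 and 32.1 CPM in knockout libraries 1 to 4, against 8.81, 23.9, 12.2 and 6.31 CPM in wildtype libraries 1 to 4. The groups did not overlap, and knockout library 3 and wildtype library 2 were the highest of their groups. It rose 3.90-fold in the knockout libraries (log2 fold change 1.96 ± 0.47 SE, edgeR adjusted p = 0.0383). Of the 8 fits that left a library out, its call held without wildtype library 2 (adjusted p = 0.0123) and ended in the other 7, with adjusted p up to 0.104, and the log2 fold change was 1.66 to 2.44 over the 8. Its near copy Cyp4a12b was at 4.15, 3.80, 7.05 and 4.12 CPM in the knockout libraries, against 4.67, 2.56, 2.91 and 1.21 CPM in the wildtype libraries, and did not pass (0.77 ± 0.35 SE, edgeR adjusted p = 0.195).

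Cyp4a14 (ENSMUSG00000028715) and Cyp4a10 (ENSMUSG00000066072), fatty acid hydroxylases induced through the receptor PPAR-alpha, were among the most abundant transcripts. Cyp4a14 had 907, 1396, 1628 and 1590.0 CPM in the knockout libraries, against 1014, 777, 957 and 744 CPM in the wildtype libraries. Knockout library 1 lay among the wildtype values, and the other 3 lay above all of them. Cyp4a14 rose 1.58-fold (log2 fold change 0.66 ± 0.18 SE, edgeR adjusted p = 0.0409). The call held in 1 of the 8 fits that left a library out, the one without knockout library 1 (0.82, adjusted p = 0.00277), with adjusted p up to 0.107 in the others. Cyp4a10 had 700.4, 917, 1254 and 1168 CPM in the knockout libraries, against 518, 480.4, 805 and 648 CPM in the wildtype libraries. Its groups overlapped at knockout library 1, and its log2 fold change of 0.72 ± 0.21 SE did not pass (edgeR adjusted p = 0.0589), though it did without knockout library 1 (0.86, adjusted p = 0.0183) or without wildtype library 3 (0.88, adjusted p = 0.0308). Knockout library 1 was also the knockout library whose clock score lay within the wildtype range. With that score as a term in the fit, the log2 fold change of Cyp4a14 was 0.23 (adjusted p = 0.657), that of Cyp4a10 0.72 (adjusted p = 0.383) and that of Cyp4a12a 1.76 (adjusted p = 0.291).

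None of the remaining CYP4 genes passed the test. Cyp4b1, which oxidises short and medium fatty acids and activates lung toxins and is higher in male mouse kidney, had 1088, 804, 1559 and 830 CPM in the knockout libraries, against 779, 563, 839 and 919.5 CPM in the wildtype libraries, with overlapping groups (log2 fold change 0.46 ± 0.23 SE, edgeR adjusted p = 0.233). The 4 CYP4F genes, whose family hydroxylates leukotrienes and long fatty acids, ranged from -0.16 (Cyp4f13) to 0.26 (Cyp4f15 and Cyp4f16), and none passed. Cyp4v3, the mouse counterpart of a human fatty acid hydroxylase gene of the retina, stood at 0.29 (adjusted p = 0.124), and 8.22% of its exon length overlaps another gene with a row in the files.

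**Figure D3:**
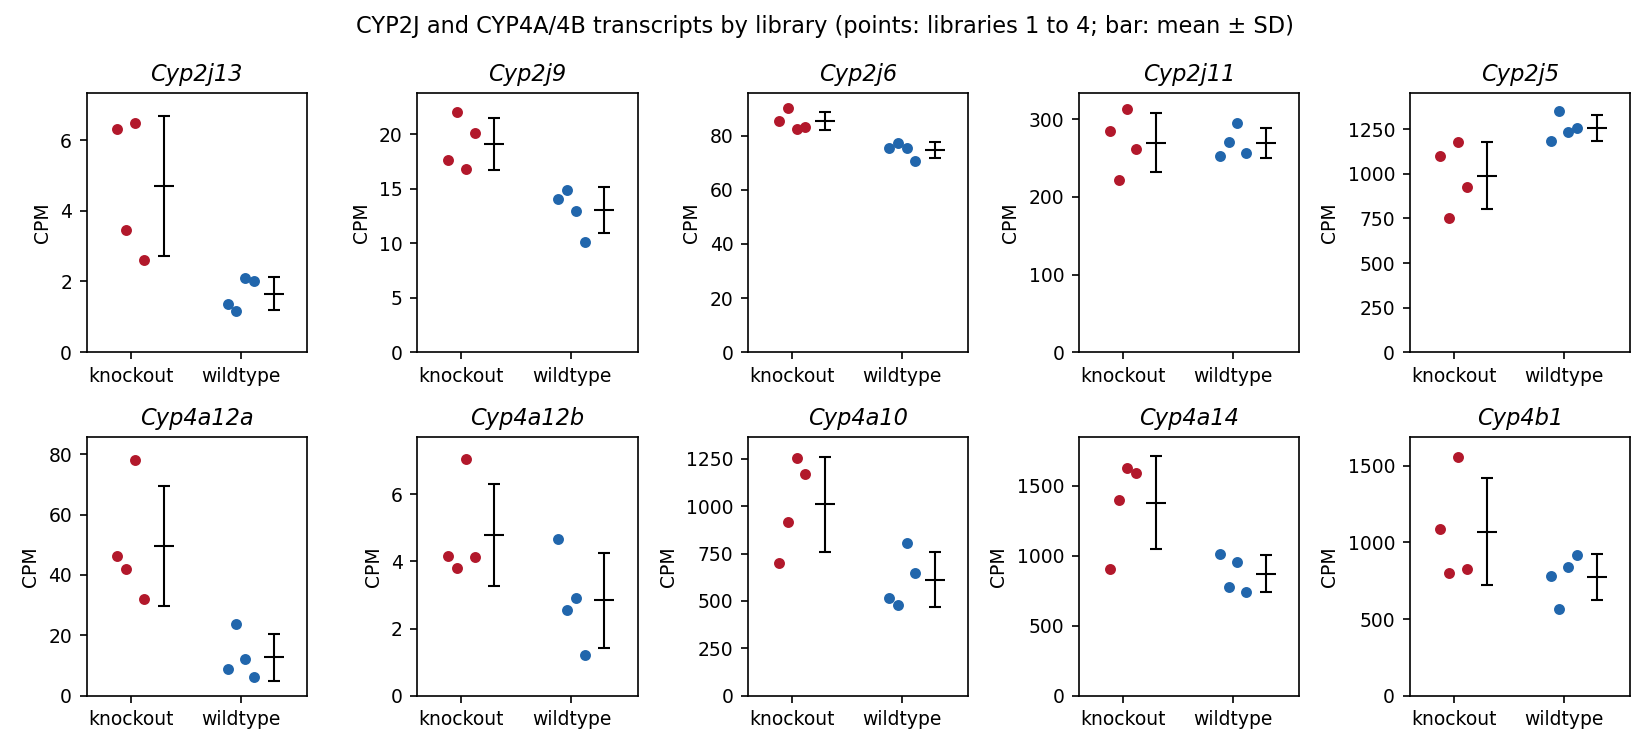
Levels in CPM of 5 CYP2J and 5 CYP4A or CYP4B transcripts, with 1 point per library in order 1 to 4, knockout in red and wildtype in blue, and the mean ± SD beside each group. Cyp2j13, Cyp2j9, Cyp2j6 and Cyp4a12a have no overlap with all knockout libraries above, and Cyp2j5 has no overlap with all knockout libraries below.

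The CYP2 family, the largest of the set, held the other 2 genes that rose, both of the CYP2J group of arachidonate epoxygenases. Of its 16 tested members, 2 rose and none fell (12.5% called, against 11.9% of all genes tested), and its median log2 fold change was 0.03. Cyp2j13 (ENSMUSG00000028571) was at 6.31, 3.45, 6.49 and 2.60 CPM in the knockout libraries, against 1.36, 1.17, 2.10 and 2.0 CPM in the wildtype libraries. All knockout values lay above all wildtype values, but knockout library 4 was close to the highest wildtype library. Cyp2j13 rose 2.82-fold (log2 fold change 1.50 ± 0.33 SE, edgeR adjusted p = 0.0141) on 319 counts in the knockout libraries and 103 in the wildtype libraries. It was the only member whose call held in all 8 fits that left a library out (adjusted p of 0.00826 to 0.0434), and it also passed with the clock score as a term (1.94, adjusted p = 0.0465).

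Cyp2j9 (ENSMUSG00000015224), a CYP2J gene known from mouse brain as well, was at 17.6, 22.0, 16.8 and 20.1 CPM in the knockout libraries, against 14.1, 14.9, 13.0 and 10.1 CPM in the wildtype libraries, with no overlap. It rose 1.47-fold (log2 fold change 0.56 ± 0.14 SE, edgeR adjusted p = 0.0228). The call ended without knockout library 2 (adjusted p = 0.0737), knockout library 4 (adjusted p = 0.0632) or wildtype library 3 (adjusted p = 0.0547), while the log2 fold change was 0.45 to 0.63 over the 8 fits that left a library out. It also ended in the fit with the clock score (0.42, adjusted p = 0.294). The other CYP2J genes among the members are far more abundant and differed among themselves in sign. Outside the set, Cyp2j7 was lower than Cyp2j9, at a mean of 3.85 CPM in the knockout and 3.19 CPM in the wildtype libraries. Cyp2j5 (ENSMUSG00000052520), the epoxygenase of the proximal tubule, had 1103, 754, 1179 and 926 CPM in the knockout libraries, against 1183, 1352, 1237 and 1257 CPM in the wildtype libraries. All knockout values lay below all wildtype values, by a narrow margin for knockout library 3, and the log2 fold change of -0.34 ± 0.13 SE did not pass (edgeR adjusted p = 0.11). Cyp2j6 was at 82.5 to 90.1 CPM in the knockout libraries and 70.6 to 77.4 CPM in the wildtype libraries (log2 fold change 0.19, adjusted p = 0.0648), and Cyp2j11 stood at 0.01 (adjusted p = 0.98).

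Cyp2j13 and Cyp2j9 both lie on chromosome 4, and the 250 bases before their start sites are shown because both genes rose. The sequences are RefSeq's on GRCm38.p6, on the gene's own strand, which is the minus strand for both, and capitals mark GCGTG, the core of the site bound by the aryl hydrocarbon receptor.
Cyp2j13, chr4:96077541-96077790: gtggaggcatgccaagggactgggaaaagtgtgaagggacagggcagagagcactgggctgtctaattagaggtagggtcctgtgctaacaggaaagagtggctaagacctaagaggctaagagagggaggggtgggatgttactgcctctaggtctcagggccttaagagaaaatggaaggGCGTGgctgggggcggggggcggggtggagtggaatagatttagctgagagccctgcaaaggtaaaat
Cyp2j9, chr4:96591486-96591735: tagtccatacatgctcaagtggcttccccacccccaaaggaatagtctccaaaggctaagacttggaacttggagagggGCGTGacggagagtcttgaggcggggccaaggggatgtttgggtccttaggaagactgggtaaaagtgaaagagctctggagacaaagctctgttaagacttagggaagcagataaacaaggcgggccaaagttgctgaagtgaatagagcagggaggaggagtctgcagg
The GCGTG match begins at position -68 in Cyp2j13 and at -171 in Cyp2j9, counted from the start site as 0. From a second start site listed for Cyp2j13, the same match begins at -61, and both of its windows are counted below. Searched on both strands of 300-base windows around the start site, GCGTG occurred in 11 of 30 windows of 29 members (36.7%), against 32.4% of all 32851 windows. The AP-2 letters GCCNNNGGC occurred in 6 of the 30 windows (20%), against 16.6% of all windows, and in neither of the sequences shown. TTATGTAA, the site of the clock output factors Dbp and Tef, and the direct repeat bound by PPAR-alpha occurred in none of the 30, against 0.938% and 0.04% of all windows. No window was available for the 4 CYP4A members. A match is a run of letters and not a bound site.

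Among the other CYP2 genes, none passed, and several varied widely between libraries of the same group. Cyp2c44 (ENSMUSG00000025197), an epoxygenase of the collecting duct and proximal tubule listed in RefSeq as Cyp2c23, had 92.6, 76.0, 135 and 89.6 CPM in the knockout libraries, against 149.9, 168, 196 and 94.1 CPM in the wildtype libraries. Only wildtype library 4 lay within the knockout values, and the log2 fold change of -0.63 ± 0.25 SE did not pass (edgeR adjusted p = 0.151; -0.80 and adjusted p = 0.0345 without wildtype library 4). Cyp2a4, a steroid hydroxylase that is higher in female kidney, was at 129.8 to 268 CPM in the knockout libraries and 196 to 341 CPM in the wildtype libraries (log2 fold change -0.48, adjusted p = 0.255). Its near copy Cyp2a5, a coumarin hydroxylase, spanned 32.0 to 129 CPM in the knockout libraries and 32.7 to 130.3 CPM in the wildtype libraries, a 4.03-fold and a 3.98-fold range (log2 fold change 0.30, adjusted p = 0.787).

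The ethanol-oxidising Cyp2e1 was at 0.59 on the log2 scale (adjusted p = 0.24), and the 3 CYP2D genes, a family that handles steroids and drugs, lay between -0.40 (Cyp2d9) and 0.17 (Cyp2d22). Cyp2d26 (ENSMUSG00000022445), after Cyp2j5 the CYP2 member with the highest CPM, had 226, 235, 369 and 294 CPM in the knockout libraries, against 320.5, 326, 386 and 312 CPM in the wildtype libraries. Only knockout library 3 lay within the wildtype values; the log2 fold change of -0.26 did not pass (adjusted p = 0.3), and the gene was called as falling only without that library (-0.42, adjusted p = 0.0435). Cyp2r1, the vitamin D hydroxylase of the endoplasmic reticulum, and Cyp2s1 stood at 0.04 and 0.01. Cyp2u1, a fatty acid hydroxylase, was at -0.28 (adjusted p = 0.312) and Cyp2f2, which oxidises naphthalene in mouse lung, at 0.83 (adjusted p = 0.206). An antisense gene with a row of its own overlaps 13.5% of the exon length of Cyp2f2. For Cyp2u1, 10.5% of the exon length overlaps an antisense gene with no row, and since counting ignored strand, reads of that gene there cannot be told apart from those of Cyp2u1.

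The CYP1 genes, classical targets of the aryl hydrocarbon receptor, were higher without passing the test. Cyp1b1 (ENSMUSG00000024087), which acts on oestrogens and aromatic compounds, had 60.3, 49.6, 53.4 and 53.7 CPM in the knockout libraries, against 30.6, 48.9, 27.7 and 40.4 CPM in the wildtype libraries. The groups did not overlap, though wildtype library 2 nearly reached the lowest knockout value (log2 fold change 0.56 ± 0.16 SE, edgeR adjusted p = 0.0528). Without wildtype library 2 the change was 0.72 (adjusted p = 0.00895). Cyp1b1 was also called as rising with DESeq2, voom, upper quartile factors and library totals. Cyp1a1 (ENSMUSG00000032315) was low, at 4.33, 5.97, 5.42 and 5.78 CPM in the knockout libraries, against 3.39, 2.34, 1.11 and 4.25 CPM in the wildtype libraries. Its groups also did not overlap, and its log2 fold change of 0.96 ± 0.32 SE did not pass (edgeR adjusted p = 0.0825, and 1.26 with adjusted p = 0.0375 without wildtype library 4). DESeq2 and the fit with library totals called Cyp1a1 as rising. In the CYP3 family of drug and steroid hydroxylases, Cyp3a13 had 1.75, 1.40, 0.727 and 0.722 CPM in the knockout libraries, against 2.26, 1.53, 2.21 and 1.46 CPM in the wildtype libraries. Knockout libraries 2, 3 and 4 lay below all wildtype libraries and knockout library 1 lay among them (log2 fold change -0.68, adjusted p = 0.211). Cyp3a11, the main hepatic member, was near 0 throughout, with 3, 1, 3 and 3 counts in the knockout libraries and 3, 4, 1 and 1 counts in the wildtype libraries.

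The 2 retinoic acid hydroxylases pointed in opposite directions, and neither passed. Cyp26b1 (ENSMUSG00000063415) had 1.81, 3.92, 11.0 and 2.38 CPM in the knockout libraries, against 19.8, 8.11, 18.3 and 14.9 CPM in the wildtype libraries. The groups overlapped through knockout library 3, which lay above wildtype library 2. Its log2 fold change was the most negative of the members (-1.66 ± 0.58 SE, edgeR adjusted p = 0.113), and it was called as falling without knockout library 3 (-2.49, adjusted p = 0.00576). DESeq2 also called it as falling, together with Cyp2c44. Cyp26a1 was near the counting limit, at 0.643, 0.937, 1.34 and 1.95 CPM in the knockout libraries, against 0.979, 0.438, 0.407 and 0.849 CPM in the wildtype libraries, with overlapping groups (log2 fold change 0.85, adjusted p = 0.214).

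None of the 4 sterol enzymes passed, and the value of Cyp7b1 turned on a single library. Cyp7b1 (ENSMUSG00000039519), the oxysterol hydroxylase, had 21.9, 28.9, 26.0 and 26.4 CPM in the knockout libraries, against 8.44, 5.26, 10.1 and 55.6 CPM in the wildtype libraries. Wildtype library 4 was above every knockout library and the other 3 wildtype libraries were below every one. Over all 8 libraries the log2 fold change was 0.36 ± 0.74 SE (edgeR adjusted p = 0.798), and without wildtype library 4 it was 1.69 (adjusted p = 0.00118). Cyp27a1 (ENSMUSG00000026170), the mitochondrial sterol hydroxylase, had 50.04, 50.1, 51.8 and 45.9 CPM in the knockout libraries, against 54.4, 48.7, 50.8 and 42.9 CPM in the wildtype libraries. It was among the steadiest members, with a log2 fold change of 0.01 ± 0.08 SE (edgeR adjusted p = 0.962). Cyp39a1 and Cyp46a1, which act on side-chain oxysterols and on cholesterol, stood at -0.01 and 0.23. The orphan Cyp20a1, whose substrate is unknown, had 23.4, 19.4, 24.8 and 22.0 CPM in the knockout libraries, against 27.1, 27.8, 22.1 and 24.4 CPM in the wildtype libraries, with overlapping groups (log2 fold change -0.18, adjusted p = 0.301).

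Variation between mice of 1 group was wider for P450 transcripts than for the typical gene. The median ratio of highest to lowest library was 1.56 among knockout libraries and 1.61 among wildtype libraries for the tested members, against 1.29 and 1.27 over all genes tested. It exceeded 3-fold for 3 members among the knockout libraries and 7 among the wildtype libraries.

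**Figure D4:**
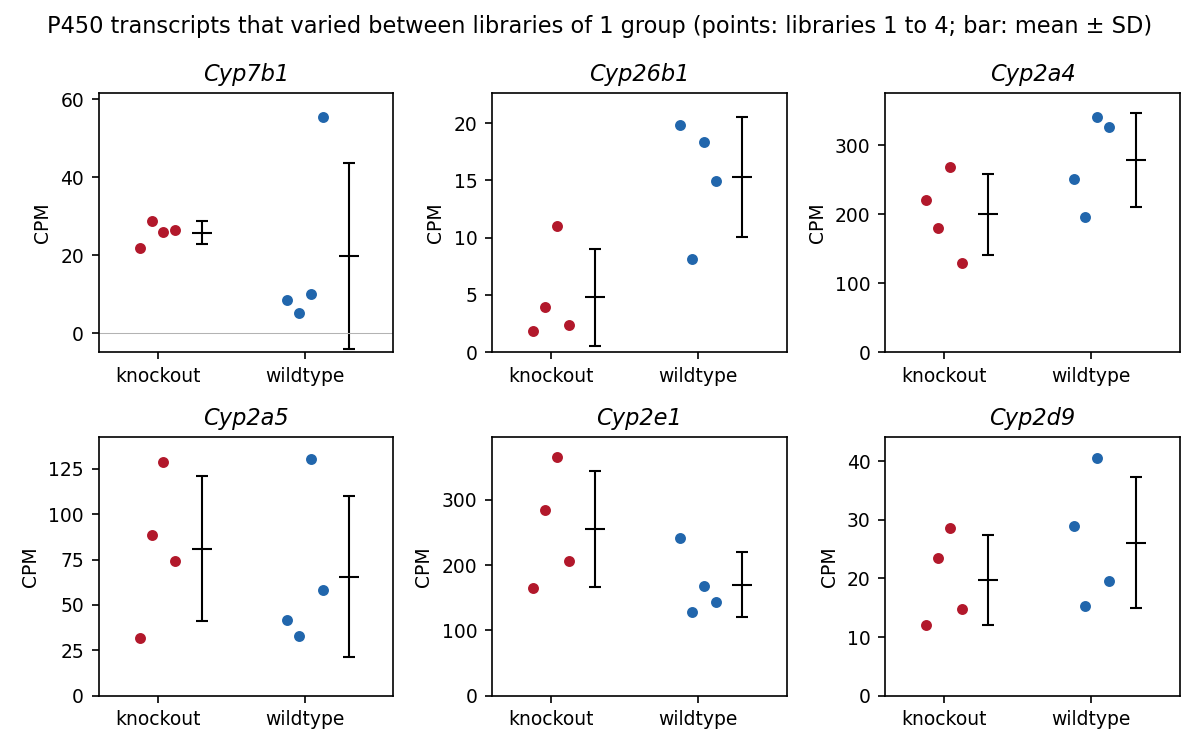
Levels in CPM of 6 P450 transcripts that varied between libraries of the same group, with 1 point per library in order 1 to 4, knockout in red and wildtype in blue, and the mean ± SD beside each group. Wildtype library 4 stands apart for Cyp7b1 (55.6 CPM against 5.26 to 10.1 CPM), and the Cyp26b1 groups overlap only through knockout library 3 and wildtype library 2.

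Among the genes that serve P450 enzymes, the reductase fell. NADPH-cytochrome P450 reductase (Por), the electron donor of all P450 enzymes of the endoplasmic reticulum, had 387, 266, 341 and 332 CPM in the knockout libraries, against 385, 452, 498 and 551 CPM in the wildtype libraries. It fell, with overlapping groups (log2 fold change -0.51 ± 0.13 SE, edgeR adjusted p = 0.0298). No other of the 9 redox partners and helpers passed, so 11.1% of this list was called, against 11.9% of all genes tested. For Pgrmc1, a haem-binding partner of P450 enzymes, the log2 fold change was 0.22 (adjusted p = 0.0546). Of 12 genes of haem synthesis and breakdown, Hmox1, the haem oxygenase induced by stress, rose (0.75, adjusted p = 0.0218), while Blvra, biliverdin reductase (-0.28, adjusted p = 0.0312), and Fech, the last enzyme of haem synthesis (-0.28, adjusted p = 0.0454), fell. In that list 25% passed, against 11.9% of all genes tested.

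Of 19 receptors and factors that control P450 genes, 5 fell and 1 rose, with a median log2 fold change of -0.31; of all genes tested, 5.7% fell and 6.23% rose, with a median of 0.00. Cebpa (log2 fold change -0.43, adjusted p = 0.0316), the oxysterol receptor Nr1h3 (-0.31, adjusted p = 0.0317) and Tef, a clock output factor (-1.26, adjusted p = 0.0376), fell. Also falling were Hnf4a, the nuclear receptor of the proximal tubule (-0.39, adjusted p = 0.0432), and Tiparp, a target and repressor of the aryl hydrocarbon receptor (-0.32, adjusted p = 0.0432), while Cebpb rose (0.76, adjusted p = 0.0378). These last 3 were named after their values were seen. Ppara itself was at 21.5 to 43.0 CPM in the knockout libraries and 26.3 to 51.3 CPM in the wildtype libraries, and did not pass (log2 fold change -0.41, adjusted p = 0.394).

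**Figure D5:**
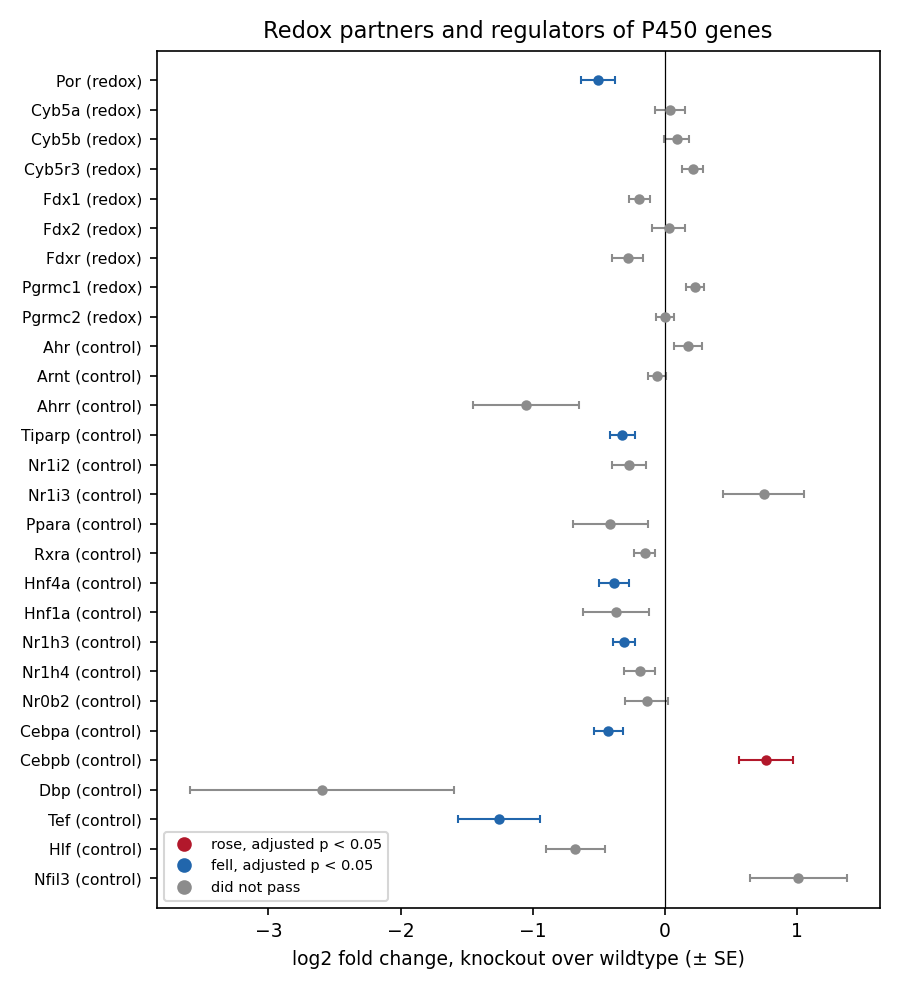
Log2 fold changes (knockout over wildtype, ± SE) of 9 redox partners and 19 control factors of P450 genes. Blue points fell (Por, Tiparp, Hnf4a, Nr1h3, Cebpa and Tef), the red point rose (Cebpb), and grey points did not pass.

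In the pathways around the P450 enzymes, a few genes passed in each. The share called was 20% for arachidonate and epoxide enzymes, 25% for retinoid handling, 16.7% for PPAR-alpha targets and 20% for the sterol side. Of all genes tested 11.9% were called, and each of these lists is short. Of 10 tested arachidonate and epoxide enzymes, 2 rose and none fell. Ephx1, the microsomal epoxide hydrolase, had 109.7, 159, 108 and 112 CPM in the knockout libraries, against 64.4, 64.8, 67.5 and 66.3 CPM in the wildtype libraries, with no overlap (log2 fold change 0.89 ± 0.12 SE, edgeR adjusted p = 0.00105). Alox5, the leukotriene-forming lipoxygenase of white blood cells, rose at low levels (1.11, adjusted p = 0.0415) beside the summed macrophage markers, which came to 234 to 333 CPM in the knockout libraries and 159 to 186 CPM in the wildtype libraries. Of 12 tested genes of retinoid handling, Aldh1a3, a retinoic acid synthase, fell (-1.86, adjusted p = 0.00654), as did the retinoic acid receptor Rarb (-0.41, adjusted p = 0.0372), while a second synthase, Aldh1a1, rose (1.18, adjusted p = 0.0468).

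Of 12 target genes of PPAR-alpha other than the P450 members, 2 rose and none fell. These were the lipid droplet protein Plin2 (log2 fold change 0.46, adjusted p = 0.011) and the peroxisomal thiolase Acaa1b (0.46, adjusted p = 0.0253). Acadm, which oxidises medium-chain fatty acids in mitochondria, was lower in every knockout library but did not pass (-0.44, adjusted p = 0.0543). On the sterol and bile acid side, 1 of 10 genes rose, the sterol exporter Abca1 (0.46, adjusted p = 0.0484), and 1 fell, the sterol carrier Scp2 (-0.32, adjusted p = 0.0258). Of the 19 genes named from these lists of partners, regulators and pathways that passed, Ephx1, Aldh1a3 and Plin2 kept their calls in all 8 fits that left a library out, and the other 16 kept theirs in 1 to 4 of the 8. In the fit with the clock score, 3 of the 19 passed (Ephx1, Alox5 and Acaa1b). Tef is one of the genes that make up the score, so its lost call in that fit carries no information.

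Of 54 further P450 genes with a row, 10 were tested and none passed with edgeR, with 1 at an unadjusted p under 0.05. The 3 with the smallest adjusted p were Cyp17a1, a steroid hydroxylase and lyase (log2 fold change 0.88, adjusted p = 0.0729), Cyp2j8 (1.01, adjusted p = 0.202) and Cyp4a32 (0.81, adjusted p = 0.22). Cyp4a31, which shares sequence with Cyp4a10, ranged from 85.9 to 134 CPM in the knockout libraries and from 95.4 to 364 CPM in the wildtype libraries, and did not pass (-0.88, adjusted p = 0.295); it was named after its values were seen. The steroid-making genes Cyp11a1, Cyp11b1 and Cyp21a1, named for the same reason, were at 19.9, 31.0 and 58.6 CPM in knockout library 4 and at no more than 0.41 CPM in any other library, beside the adrenal cortex markers of that library, of which they are a part. Leaving out knockout libraries 1 and 4 together, the calls that remained among the members were Cyp2j13 (1.57, adjusted p = 0.0238) and Cyp4a14 (0.79, adjusted p = 0.0163).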

How the data were processed

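Whole-kidney RNA, 200 ng per library, was made into directional libraries with 15 PCR cycles, per the labels' protocols. Each deposited file gives read counts for every gene of 1 library, not normalized and, per its name, counted without strand; STAR, HTSeq, edgeR and the build mm9 are named in the submitters' processing notes, with no versions or roles. Uniquely counted reads made up 63.8% to 69.1% of records, and alignments that were not unique made up 15.4% to 18.0%, which lowers the counts of near-identical genes.

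From these counts, genes were kept by filterByExpr (15228 of 37583), scaled by TMM and tested with edgeR 4.0.16 (R 4.3.3; quasi-likelihood, robust, no covariate), all 4 knockout against all 4 wildtype libraries, adjusted over all genes; DESeq2 1.42.0 and limma 3.58.1 (voom) were alternatives. Symbols and lengths came from GENCODE M21 and RefSeq tables on GRCm38, not the authors' build. The fit was tested on simulated data. Members, gene lists and alternatives, including the clock score term and the fit without knockout libraries 1 and 4, were chosen with earlier results of these data known. Values were printed per library for each member that passed and for the most abundant members of each family; up to 3 genes per further list were named by smallest adjusted p. A gene of the list of control factors is not reported here. Nothing in the labels ties replicates to separate litters or days, and p-values measure the spread between these samples. Pairs of libraries within a group were distinct (chi-square over degrees of freedom, 9.72 to 24.8).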

Additional observations from a re-analysis of the deposited data

Results flagged for a closer look

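In 8 of 154 groups of 4 libraries checked, 1 library stood far from the other 3, its gap to the nearest of them making up most of the range of the group. Chance alone flags about 1 in 20 such groups.

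Among the P450 members, Cyp7b1 stood out in the wildtype libraries, where library 4 had 55.6 CPM against 5.26 to 10.1 CPM (gap 0.903 of the range). Cyp4a12b stood out in the knockout libraries, where library 3 had 7.05 CPM against 3.80 to 4.15 CPM (0.893). Knockout library 3 was also the highest for Cyp4a12a.

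Among the other genes, Ephx1 in knockout library 2 had 159 CPM against 108 to 112 CPM (gap 0.928 of the range), and Tfap2b in the same library had 266 CPM against 237 to 240.3 CPM (0.889). In knockout library 1, the clock output genes Tef (246 CPM against 107 to 131 CPM, 0.832) and Dbp (34.9 CPM against 2.99 to 5.78 CPM, 0.912) stood above the other knockout libraries. Nr1h3 in wildtype library 2 was low, at 58.9 CPM against 64.7 to 65.2 CPM (0.910). The summed adrenal cortex markers of knockout library 4 came to 249 CPM against 10.1 to 10.8 CPM (0.997).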

How the results depend on the processing

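Over 20 alternatives and 36 tested members, 628 of 718 values kept their direction and their side of the threshold. Of the rest, 31 lost a call, 29 gained one and 30 changed sign, none of these with a call. The thresholds of 0.01 and 0.10 reuse the main fit, so their values could change side but not direction. Most of the 718 values belong to members without a call in the main fit. The 31 lost calls all belong to the 4 members that rose, the only ones with a call to lose. Cyp4a14 was not called with voom, with no filter or with the replicate block, and with voom Cyp1b1 was called in its place. Members that rose numbered 4, against 9 with library totals only, 7 with upper quartile factors, 8 with DESeq2, 2 with no filter, 0 at a threshold of 0.01, 8 at 0.10, 1 with the clock score as a term, 2 without knockout libraries 1 and 4, and 1 to 4 with a library left out. To the members that rose in the main fit, DESeq2 added Cyp1a1, Cyp1b1, Cyp2j6 and Cyp4a10. Members that fell numbered 0, against 2 with DESeq2 and 0 to 2 with a library left out. Genes called numbered 1817 in all, against 706 at 0.01, 2850 at 0.10, 773 with the clock score, 912 without knockout libraries 1 and 4 and 1076 to 1940 with a library left out; the cause of the changes was not tested. The replicate block gave 1094 genes and 3 members. Same-numbered libraries deviated with correlations of -0.22, -0.21, -0.05 and 0.16, and differently numbered ones with up to 0.35. The numbers gave no sign of pairing, though with 4 libraries per group this check cannot exclude it.

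Cyp39a1 turned positive with library totals (0.10), upper quartile factors (0.022) and voom (0.021), and Cyp2j11 negative with voom (-0.0025), the replicate block (-0.0024) and without knockout libraries 1 and 4 (-0.010), as did Cyp2r1 (-0.0050). With the clock score, Cyp2d22 (-0.55), Cyp2e1 (-0.14), Cyp2r1 (-0.075), Cyp26a1 (-0.063) and Cyp27a1 (-0.056) turned negative and Ppara positive (0.24). With a library left out, Cyp2j11 ranged from -0.070 to 0.090, Cyp2s1 from -0.071 to 0.12, Cyp39a1 from -0.14 to 0.14, Cyp27a1 from -0.053 to 0.058, Cyp2a5 from -0.024 to 0.87, Cyp2r1 from -0.11 to 0.14 and Cyp4f15 from -0.0087 to 0.43. Depth limits Cyp1a2, Cyp3a11 and Cyp2b10, with 1 to 34 counts per group.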
